A study of Rattus norvegicus with 6 samples.

Results

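The enzymes, anchors and receptors of cyclic AMP were examined in neonatal rat ventricular myocytes that had been given Tbx18, a T-box factor that marks the embryonic sinus node region. The genes were taken by symbol: those beginning with Adcy, Pde or Akap and a number, those beginning with Prkac or Prkar, Rapgef3 and Rapgef4, and the Popeye genes Popdc2, Popdc3 and Bves. This gave 60 of the 17089 genes of the deposited table: 10 adenylyl cyclases, 25 genes with a Pde symbol, 6 subunits of protein kinase A (PKA), 16 Akap genes, Rapgef3 and 2 Popeye genes. Rapgef4 and Popdc3 were not found under these symbols and were not analysed here.

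The cells were primary ventricular cultures from Sprague Dawley rats of postnatal day 1 to 3, kept in an M199-based medium on fibronectin, the serum being 10% at first and 2% from day 3. On the day of isolation they received an adenovirus with GFP (Ad-GFP, 3 libraries) or an adenovirus with Tbx18, an internal ribosome entry site and GFP (Ad-Tbx18-IRES-GFP, 3 libraries), and the RNA was harvested on day 4. Both groups therefore carried virus and GFP, and no culture without virus is analysed here. The column header of every library also reads unpace and Control, and no paced culture is analysed here. The labels give neither the promoter of the transgenes nor the origin of the replicates, so p-values reflect the spread between libraries that may be technical replicates.

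Cyclic AMP is made from ATP by adenylyl cyclases that receptors switch on or off through G proteins. It binds the regulatory subunits of PKA, which then release the catalytic subunits, and it also acts on Epac proteins, Popeye proteins and HCN channels, while phosphodiesterases break it down and anchoring proteins of the Akap family hold PKA at particular sites in the cell. In the heart this pathway carries the effect of adrenaline and noradrenaline on the rate of the sinus node and on the force of contraction.

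Values below are DESeq2-normalized read counts, that is, reads per gene divided by one factor per library. Folds are ratios of group means, errors are SDs over 3 libraries, and counts are not compared between genes because gene length was not corrected for. Groups were compared with limma on log2(normalized count + 1), so that log2 fold changes understate the change of genes with few counts. A gene was called when its Benjamini-Hochberg adjusted p was under 0.05 over all 11230 genes with a mean of at least 10. The libraries held 17074483 to 19800300 gene-assigned reads, and Tbx18 itself went from 292 ± 22.1 to 6059 ± 157, every library matching its label.

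Of the 60 genes, 49 were tested, and 12 of these were called higher in the Tbx18 libraries and 17 lower. Over all genes tested, 22.5% were called higher and 23.5% lower, 46.0% together. Among the cyclic AMP genes 24.5% were called higher and 34.7% lower, 59.2% together. The median log2 fold change was -0.12 for these genes and 0.01 for all genes tested. Of the 49, 12, or 24.5%, were called with a change of 2-fold or more, against 12.3% of all genes tested. Of these, 7 went upward and 5 downward. The 7 include Pde1b, which passed the minimum mean only through its Tbx18 libraries. The 2 groups of libraries did not overlap for 32 of the 49, or 65.3%, against 57.2% of all genes tested. When libraries were scaled instead to equal recovered reads, which moved the median of all genes to 0.27, 19 members were called higher and 9 lower.

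**Figure D1:**
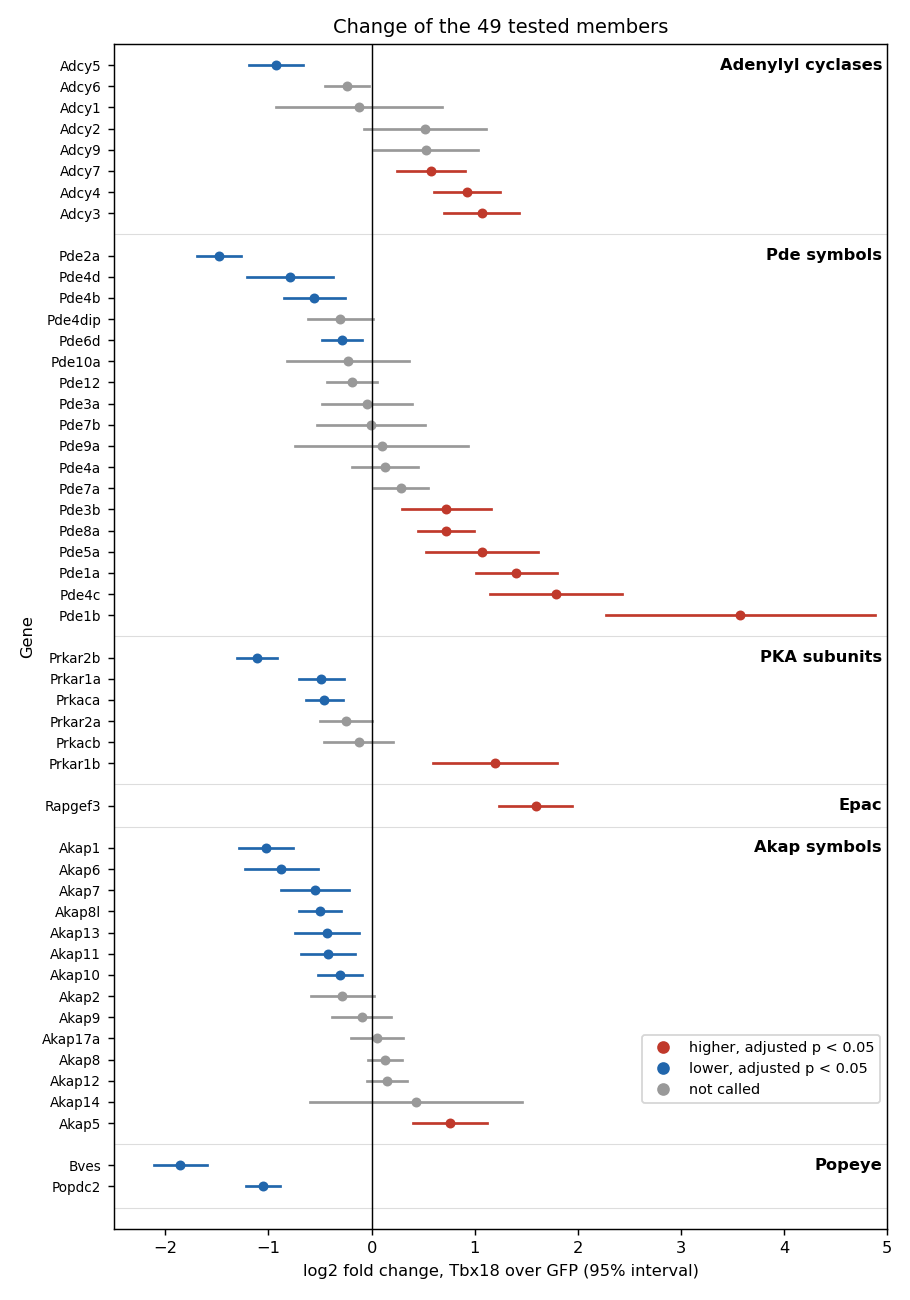
Log2 fold change of Tbx18 over GFP for each of the 49 tested genes, in 6 families; points are limma estimates, bars are 95% intervals, and colour shows the call at an adjusted p under 0.05. The cyclases and Pde genes spread to both sides of 0, 7 of 14 Akap genes lie lower, and both Popeye genes lie lower.

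Markers of several of the cell types that such cultures hold moved between the groups as well. Against 46.0% of all genes tested, 80.0% of cardiomyocyte, 90.9% of fibroblast and 75.0% of smooth muscle and pericyte markers tested were called. The shares were 54.5% for endothelial, 27.3% for macrophage and leukocyte, and 75.0% for neuron and Schwann cell markers. Of 10 tested cardiomyocyte markers 8 fell and none rose, with a median log2 fold change of -0.93, and their summed count was 921564 to 1041012 in GFP and 472357 to 486308 in Tbx18. Of 11 fibroblast markers 10 rose, the exception being Col1a2 at 12.6 and 18.0, and their sum went from between 241666 and 281593 to between 517996 and 602708. Smooth muscle and pericyte markers split, with 6 of 12 higher and 3 lower (sums 206017 to 220164 and 173004 to 180081). Of 11 endothelial markers 5 rose and 1 fell (sums 2337 to 3710.5 and 3426 to 3543), and of 11 macrophage and leukocyte markers 3 rose (sums 1341 to 2422 and 1714 to 2363). Of 8 neuron and Schwann cell markers 4 were tested and 3 of them rose (sums 617 to 755 and 1279.7 to 1359.6), while Th, Sox10, Elavl4 and Snap25 had means under 10. In such bulk RNA a smaller share of cells of a type and less RNA per cell cannot be told apart, and the part of these shifts in the changes below was not tested.

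The adenylyl cyclases, which make cyclic AMP, did not move together: of 8 tested, 3 rose, 1 fell and 4 were not called. Together 4 of 8 were called, near the 46.0% of all genes tested. Adcy5, with Adcy6 one of the main cyclases of heart muscle and inhibited by calcium, was read at 1074, 834 and 1025 in GFP and at 488, 497 and 551 in Tbx18. All Tbx18 libraries lay below all GFP libraries. Adcy5 fell 1.91-fold (limma log2 fold change -0.93, SE 0.12, adjusted p = 0.000204). Adcy6 was read at 3590.3, 3112 and 3307 in GFP and at 2759, 2604 and 3124 in Tbx18. Its groups overlapped through Tbx18 replicate 3, and it was not called (limma log2 fold change -0.24, 95% interval -0.45 to -0.03, adjusted p = 0.0622). Adcy6 was called lower without GFP replicate 2, without Tbx18 replicate 3 and with array weights, and its sign turned with equal recovered reads (adjusted p 0.0278 to 0.855 across alternatives).

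Of the other cyclases, 3 rose. Adcy3, the cyclase of olfactory neurons and of primary cilia, was read at 287, 186 and 197 in GFP and at 446, 467 and 469 in Tbx18, a 2.06-fold rise (limma log2 fold change 1.07, SE 0.16, adjusted p = 0.000608). Adcy4 and Adcy7 belong to the group of cyclases that G protein beta-gamma subunits stimulate. Adcy4 rose 1.90-fold from 157 ± 22.3 to 298 ± 24.8 (limma adjusted p = 0.000703), and Adcy7 rose 1.49-fold from 353 ± 60.6 to 524 ± 64.9 (limma adjusted p = 0.00966). The groups did not overlap for any of these 3. Adcy2, of the same group, was at 27.6 ± 6.53 and 39.6 ± 7.05, and Adcy9 at 40.4 ± 3.34 and 59.3 ± 12.4, neither of them called (limma adjusted p = 0.137 and 0.0801). Both were called higher with equal recovered reads, and Adcy9 also without the intensity trend. The calcium-stimulated Adcy1 was near the limit of testing at 12.6 and 11.2, and was not called, but was called lower after quantile normalization (log2 fold change -0.12, there -0.99). Adcy8, also a calcium-stimulated cyclase, reached at most 3.45 and was not tested. Adcy10, the soluble cyclase that bicarbonate activates, was read at 0, 2.47 and 0 in GFP and at 4.60, 6.15 and 6.14 in Tbx18, which were 2 and 18 recovered reads. It was not tested, and was called higher with no filter on the mean. Its span overlaps in RefSeq that of Mpc2, which was at 2278 and 1588.

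**Figure D2:**
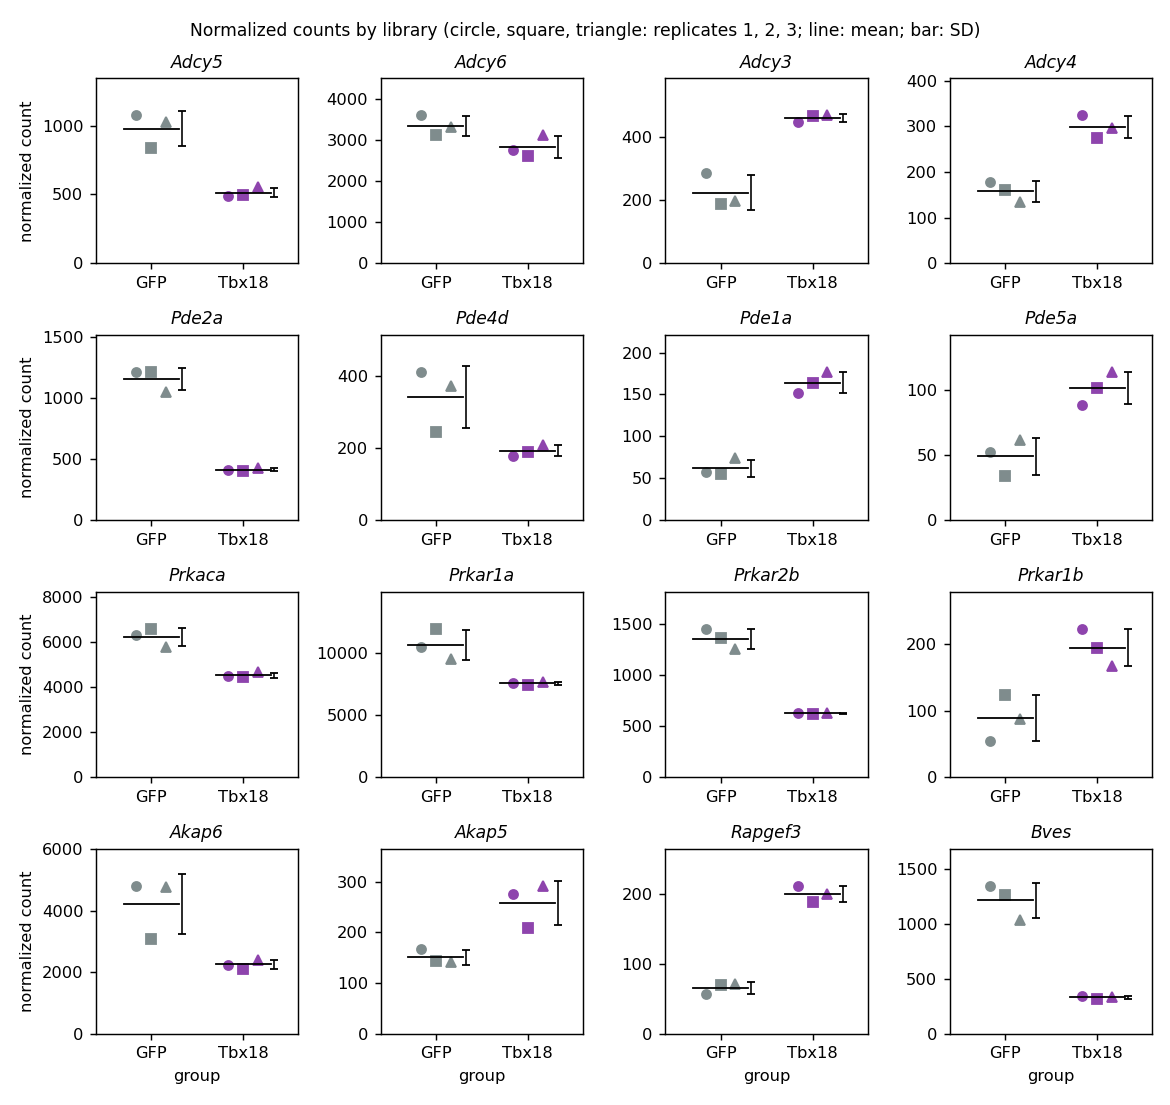
Normalized counts of 16 genes in each library; symbols mark replicates 1 to 3, the line is the group mean, the bar its SD, and every axis starts at 0. Bves, Pde2a and Prkar2b lie lower in every Tbx18 library and Rapgef3, Pde1a and Prkar1b higher, while the Adcy6 groups overlap.

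Phosphodiesterases, which break down cyclic AMP, cyclic GMP or both, also split by gene. Of 18 tested genes with a Pde symbol, 6 rose and 4 fell, with a median log2 fold change of 0.04. Together 55.6% were called, against 46.0% of all genes tested. Among the enzymes that take both substrates, Pde2a fell. It is activated by cyclic GMP and so links the 2 messengers. Pde2a was read at 1206, 1208 and 1045 in GFP and at 411, 402 and 425 in Tbx18. It fell 2.79-fold (limma log2 fold change -1.48, SE 0.10, adjusted p = 8.37e-06), and its Tbx18 libraries differed little, with an SD of 11.6. The 2 genes of the cyclic GMP-inhibited Pde3 enzymes, targets of milrinone, gave different results. Pde3a was at 561, 335 and 562 in GFP and at 433, 422 and 524 in Tbx18. The Tbx18 libraries lay within the range of the GFP libraries, and Pde3a was not called (log2 fold change -0.05, 95% interval -0.48 to 0.39). Pde3b went from 205, 120 and 137 to 237, 247 and 261. It was called 1.61-fold higher (limma adjusted p = 0.0121), but not without Tbx18 replicate 3 (adjusted p 0.000299 to 0.0507 across alternatives).

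The Pde1 genes encode calcium-calmodulin-dependent enzymes. Pde1a was read at 57.4, 54.3 and 73.6 in GFP and at 152, 164 and 176 in Tbx18, a 2.65-fold rise (limma log2 fold change 1.40, SE 0.17, adjusted p = 0.000195). Pde1b was almost without reads in GFP, at 2.13, 0 and 1.15, and was read at 28.5, 12.3 and 28.1 in Tbx18. That was 3 and 75 recovered reads, so no fold is given; it was called higher (limma adjusted p = 0.000888), but it passed the minimum mean only through its Tbx18 libraries. Pde1c, of the same group, reached at most 3.51 and was not tested. Pde5a, the cyclic GMP-specific target of sildenafil, rose 2.07-fold. Its counts were 52.1, 33.3 and 61.0 in GFP and 88.4, 101 and 113 in Tbx18 (limma log2 fold change 1.07, SE 0.24, adjusted p = 0.00553). The other cyclic GMP-specific enzyme tested, Pde9a, was at 12.6 ± 1.18 and 14.1 ± 5.07 and was not called. Of the dual-substrate genes, Pde10a was at 96.8 ± 36.4 and 79.6 ± 14.7 and was not called.

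Of 7 tested genes of cyclic AMP-specific phosphodiesterases, 2 rose and 2 fell, or 57.1% called against 46.0% of all genes tested. Pde4 enzymes are the rolipram-sensitive group, and Pde4d is found with calcium channels and ryanodine receptors in heart muscle. Pde4d was read at 410, 245 and 371 in GFP and at 179, 190 and 209 in Tbx18. It fell 1.78-fold (limma log2 fold change -0.79, SE 0.19, adjusted p = 0.00664), GFP replicate 2 being the nearest to the Tbx18 libraries. Pde4b fell 1.48-fold from 634 ± 102 to 428 ± 38.1 (limma adjusted p = 0.00698), a call lost with equal recovered reads (adjusted p 0.000802 to 0.0993 across alternatives). Pde4a was at 227 ± 7.33 and 249.9 ± 41.3 and was not called (limma adjusted p = 0.499), but was called higher with equal recovered reads. Pde4c rose 3.63-fold from 11.9 ± 2.77 to 43.1 ± 5.77 (limma adjusted p = 0.000788). Pde8a, a high-affinity enzyme that many inhibitors spare, was read at 199.99, 175 and 170.3 in GFP and at 291, 298 and 312 in Tbx18. It rose 1.65-fold (limma log2 fold change 0.72, SE 0.12, adjusted p = 0.00105), and its groups did not overlap. Pde7a was at 264 ± 16.5 and 323 ± 26.5 (limma adjusted p = 0.0697) and Pde7b at 44.3 ± 9.79 and 43.6 ± 5.27, neither called. Pde7a was called higher with upper-quartile scaling, with equal recovered reads and with array weights.

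Some genes with a Pde symbol encode no cyclic nucleotide phosphodiesterase. Pde6d, a carrier of prenylated proteins to membranes and cilia, was called 1.22-fold lower, from 748 ± 26.5 to 614 ± 8.75 (limma adjusted p = 0.0217). It was not called when any 1 Tbx18 library was left out, nor under upper-quartile or equal-read scaling (adjusted p 0.0158 to 0.841 across alternatives). Pde4dip, myomegalin, a scaffold of the centrosome and sarcomere, was at 5910.0 ± 1235 and 4722 ± 300.1 and was not called. Pde4dip was called lower without GFP replicate 2, with array weights and with the replicate number as a block (adjusted p from 0.00561 to 0.839). Pde12, which degrades oligoadenylates, was at 309 ± 16.2 and 272 ± 9.65 and was not called. Of the remaining Pde symbols, the photoreceptor genes Pde6a, Pde6b, Pde6c and Pde6h and the genes Pde8b and Pde11a had means of at most 5.21. They were not tested, and all of them but Pde6h encode catalytic chains of cyclic nucleotide phosphodiesterases.

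PKA is a tetramer of regulatory and catalytic subunits, and its type I and type II forms differ in the regulatory subunit. Of the 6 subunit genes, 3 fell and 1 rose, or 66.7% called against 46.0% of all genes tested. The largest fall was that of Prkar2b, a type II regulatory subunit that anchoring proteins bind, read at 1449.9, 1362 and 1257 in GFP and at 631, 619.9 and 626 in Tbx18. It fell 2.17-fold (limma log2 fold change -1.11, SE 0.09, adjusted p = 1.81e-05), far more than its spread. Prkar2a, the other type II gene, was at 965, 755 and 869 in GFP and at 662, 739.8 and 768 in Tbx18. Its groups overlapped through GFP replicate 2, and it was not called (limma log2 fold change -0.25, 95% interval -0.50 to 0.00, adjusted p = 0.0955). Prkar2a was called lower without GFP replicate 2 and with array weights.

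Among the type I subunits, Prkar1b, described mainly in the nervous system, rose and Prkar1a fell. Prkar1b was read at 54.3, 123 and 87.4 in GFP and at 223, 195 and 168 in Tbx18. It rose 2.21-fold (limma log2 fold change 1.20, SE 0.27, adjusted p = 0.00508), its GFP libraries being more than 2-fold apart. Prkar1a was read at 10469, 11931 and 9493 in GFP and at 7544, 7418 and 7703 in Tbx18, a 1.41-fold fall (limma log2 fold change -0.49, SE 0.10, adjusted p = 0.00268). The catalytic subunit gene Prkaca went from 6331, 6575 and 5765 to 4490.2, 4430.4 and 4658, a 1.37-fold fall (limma log2 fold change -0.46, SE 0.08, adjusted p = 0.00141). The groups did not overlap for either gene. The calls of Prkar1a and Prkaca were lost after quantile normalization and equal-read scaling (adjusted p from 2.62e-05 to 0.0751 and from 6.80e-06 to 0.0619 over their alternatives). After quantile normalization their log2 fold changes were -0.20 and -0.21. Prkacb, the other catalytic gene, was at 545 ± 98.7 and 496 ± 56.6 and was not called (log2 fold change -0.12, 95% interval -0.46 to 0.21). In the RefSeq annotation of build GRCr8 the spans of Prkar1a, Prkar1b and Prkaca overlap those of Fam20a, Dnaaf5 and Smim46. The strand setting of the counting is not given, so their reads are less certain; Fam20a was read at 6.90 to 25.5.

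Rapgef3 encodes Epac1, an exchange factor through which cyclic AMP switches on the small GTPase Rap without PKA. Rapgef3 was read at 56.4, 70.4 and 71.3 in GFP and at 212, 189 and 200.1 in Tbx18. Every Tbx18 library lay above every GFP library. Its 3.03-fold rise (limma log2 fold change 1.59, SE 0.16, adjusted p = 6.23e-05) was the largest among the members with a mean of at least 100.

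The Popeye proteins are membrane proteins that bind cyclic AMP and are abundant in heart and skeletal muscle, and mice without Popdc1, the protein of Bves, or without Popdc2 develop slow and irregular sinus rhythm under stress. Bves was read at 1344, 1265 and 1032 in GFP and at 341, 319 and 339 in Tbx18. It fell 3.65-fold (limma log2 fold change -1.86, SE 0.11, adjusted p = 6.61e-06), the largest fall of the 49 tested genes. Popdc2 went from 6574, 6353 and 5996 to 3099, 2983 and 3030.0, a 2.08-fold fall (limma log2 fold change -1.05, SE 0.08, adjusted p = 1.19e-05). Both falls exceeded the spread between libraries, and neither call was lost under any of the 18 alternatives. The span of Popdc2 overlaps that of Pla1a in RefSeq GRCr8, and Pla1a was at 515 and 602 and was not called.

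Promoter sequence was available from RefSeq (build GRCr8) for 48 of the 60 genes, 1 of them matched by a synonym. Adcy3, Adcy6, Adcy8, Pde1b, Pde3b, Pde4c, Pde6c, Pde6d, Pde7a, Pde7b, Pde9a and Prkar2a were not matched. The 250 bases before each gene start were searched on both strands for TGACG, the core letters of the site bound by CREB-type factors that PKA activates, and for GGTGT, those of T-box sites. TGACG was found in 9 of the 48, or 18.8%, against 18.2% of all 33469 promoters in the table. GGTGT was found in 12 of the 48, or 25.0%, against 36.6% of all promoters. Of 16 matched genes that fell, 3 held TGACG and 3 GGTGT, and of 8 that rose, 1 and 2 did. Shown for the gene with the largest fall and for the gene with the largest rise among those with a mean of at least 100 are the windows of Bves (chr20:50404434-50404683, + strand) and Rapgef3 (chr7:130776817-130777066, - strand), both 5′ to 3′ with matches in capitals.
Bves: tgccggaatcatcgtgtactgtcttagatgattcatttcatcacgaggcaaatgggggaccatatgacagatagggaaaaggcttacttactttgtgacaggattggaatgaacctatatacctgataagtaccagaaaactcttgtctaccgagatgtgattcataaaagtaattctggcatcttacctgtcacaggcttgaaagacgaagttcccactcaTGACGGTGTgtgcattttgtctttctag
Rapgef3: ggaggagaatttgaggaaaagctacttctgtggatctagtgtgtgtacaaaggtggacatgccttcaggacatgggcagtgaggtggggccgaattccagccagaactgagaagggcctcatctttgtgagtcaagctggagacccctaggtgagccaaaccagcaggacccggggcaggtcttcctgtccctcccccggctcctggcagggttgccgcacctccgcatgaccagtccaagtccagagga
In the Bves window the letters TGACG and GGTGT overlap, ending 24 and 20 bases before the start, and the Rapgef3 window holds neither. A match of 5 letters is a description of the sequence, not a binding site.

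Anchoring proteins of the Akap family hold PKA near its substrates. Of 14 tested, 7 fell, 1 rose and 6 were not called, with a median log2 fold change of -0.30. Together 57.1% were called, against 46.0% of all genes tested (23.5% lower and 22.5% higher). Akap1, which anchors PKA on the outer membrane of mitochondria, was read at 3563, 2719 and 2635 in GFP and at 1410.2, 1422 and 1511 in Tbx18. It fell 2.05-fold (limma log2 fold change -1.02, SE 0.12, adjusted p = 0.000121). Akap6, the large anchor at the nuclear envelope of myocytes, was read at 4805, 3087 and 4783 in GFP and at 2248, 2108 and 2411 in Tbx18. It fell 1.87-fold (limma log2 fold change -0.88, SE 0.16, adjusted p = 0.00157), with GFP replicate 2 well below the other two. Akap8l, a nuclear protein, fell 1.42-fold from 1695 ± 156 to 1196 ± 47.6 (limma adjusted p = 0.00167). Akap7, an anchor found at calcium channels and phospholamban, fell 1.46-fold from 247 ± 30.7 to 169 ± 20.4 (limma adjusted p = 0.0131). The Akap7 call was lost with equal recovered reads and without Tbx18 replicate 1 (adjusted p 0.00277 to 0.121 across alternatives).

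The falls of 3 further anchors were small and depended on the setting. Akap13, a large anchor of heart muscle, was at 8198, 5514 and 7539 in GFP and at 5069, 4842 and 5654 in Tbx18. Its groups overlapped through GFP replicate 2 (limma log2 fold change -0.43, adjusted p = 0.0294). The call was lost after each of the 3 other scalings, where quantile normalization gave -0.19, without the intensity trend, and without GFP replicate 1, GFP replicate 3, Tbx18 replicate 1 or Tbx18 replicate 2 (adjusted p from 0.00172 to 0.378). Akap11, which binds glycogen synthase kinase 3, went from 2667 ± 451 to 1969 ± 12.1 (limma log2 fold change -0.42, adjusted p = 0.0159). Its call was lost without GFP replicate 3 or Tbx18 replicate 3, after equal-read scaling and after quantile normalization, where the log2 fold change was -0.28 (adjusted p from 0.000924 to 0.335). Akap10, which binds both types of regulatory subunit, went from 601 ± 26.0 to 485 ± 25.3 (limma log2 fold change -0.31, adjusted p = 0.0245). The Akap10 call ended when GFP replicate 3 or any 1 Tbx18 library was left out, and under upper-quartile or equal-read scaling (adjusted p from 0.0194 to 0.724).

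Akap5 was the anchor gene that rose. It encodes a plasma membrane anchor that binds PKA, protein kinase C and calcineurin. Akap5 was read at 168, 143 and 142 in GFP and at 275, 209 and 291 in Tbx18, a 1.71-fold rise with groups that did not overlap (limma log2 fold change 0.76, SE 0.16, adjusted p = 0.00355). Akap12, gravin, a scaffold for beta-adrenergic receptors, was at 1801 ± 156 and 1993 ± 34.9 and was not called (limma adjusted p = 0.180). It was called higher without GFP replicate 2, after quantile normalization and with equal recovered reads. Akap9, a scaffold of the centrosome and of the slow potassium channel, was at 1868 ± 331 and 1727 ± 78.9, and Akap2 at 4314 ± 890.2 and 3498 ± 255, both not called. Without GFP replicate 2 both were called lower, and Akap2 also with array weights. Akap8, a nuclear protein, was at 1592 ± 10.7 and 1743 ± 70.1, and Akap17a, a splicing factor, at 1067 ± 105 and 1108 ± 138, neither called; both were called higher with equal recovered reads, and Akap8 also after quantile normalization. Akap14 was at 10.8 and 13.6. The sperm genes Akap3 and Akap4 were not tested. Akap3 was at 4.63 and 5.03, and Akap4 at 2.13, 2.47 and 3.45 in GFP, or 7 recovered reads, and at 0 in every Tbx18 library. Akap4 was called lower with no filter on the mean.

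**Figure D3:**
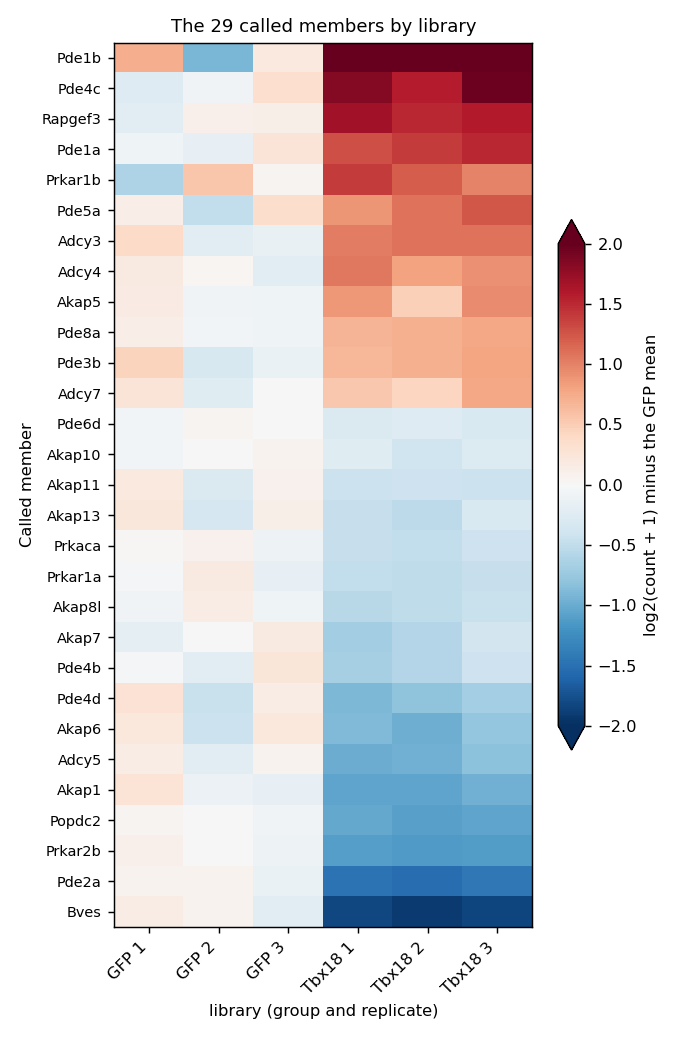
Log2(normalized count + 1) minus the GFP mean of each gene, for the 29 called genes (rows, ordered by change) in the 6 libraries (columns). GFP replicate 2 departs from the other GFP libraries in rows such as Akap6, Pde4d and Pde1b; colours end at 2, which Pde1b exceeds.

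For 7 pairs of the same family, chosen after their values were seen, the mean log2 ratio of the 2 genes is given as a description, with no test. The ratio of Adcy3 to Adcy5 was higher in Tbx18 by 1.99 and that of Prkar1b to Prkar1a by 1.69. The ratio of Pde4a to Pde4d was higher by 0.92, of Prkar2a to Prkar2b by 0.86, of Popdc2 to Bves by 0.80, of Pde3b to Pde3a by 0.77 and of Adcy6 to Adcy5 by 0.69.

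The libraries of a group also differed in how these genes lay as a whole. Of the 49 tested members, 22 had their lowest GFP value in replicate 2 and 25 their highest in replicate 1. Both are larger shares than the 31.5% and 33.9% of all genes tested. Within Tbx18, 34 of the 49 were highest in replicate 3, a larger share than the 37.2% of all genes tested. Without GFP replicate 2, 13 members were called higher and 22 lower, with a median log2 fold change of -0.25.

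The rest of the pathway was read from 5 lists of other genes. Among 23 tested receptors and G proteins of the cyclic AMP pathway, 4 rose and 7 fell, with a median log2 fold change of 0.02. Together 47.8% were called, near the 46.0% of all genes tested. Gipr, the receptor of the gut hormone GIP, fell 4.96-fold from 181 ± 51.7 to 36.4 ± 4.55 (limma adjusted p = 8.26e-05), and Gnao1, an inhibitory-type G protein alpha subunit, fell 1.80-fold from 3169 ± 431 to 1758 ± 153. Arrb2, an arrestin that uncouples receptors, rose 1.63-fold from 124 ± 25.6 to 201 ± 21.0 (limma adjusted p = 0.00858). Ptger4, a prostaglandin E2 receptor that stimulates cyclases, had a mean under 100 and was picked after its value was seen. Ptger4 rose 4.72-fold from 16.7 ± 2.70 to 78.8 ± 3.25 (limma adjusted p = 7.84e-05), the largest rise of the list. Gnai2, an inhibitory alpha subunit, was called 1.20-fold higher (limma adjusted p = 0.0296). Leaving out GFP replicate 3 or any 1 Tbx18 library, or the intensity trend, ended the Gnai2 call (adjusted p 0.000489 to 0.109). Its change of 0.27 on the log2 scale became 0.56 after quantile normalization.

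Among 22 tested inhibitors and substrates of PKA, 14 fell and 2 rose, with a median log2 fold change of -0.88. That was 72.7% called, against 46.0% of all genes tested. The PKA list holds 2 of the cardiomyocyte markers above, Ryr2 and Tnni3. The median of all 10 tested cardiomyocyte markers was -0.93. Whether the falls of the other genes of the PKA list go with the shift of these markers was not tested. Hspb6, a small heat shock protein that PKA phosphorylates, fell 4.33-fold from 10226 ± 1681 to 2363 ± 327 (limma adjusted p = 8.84e-06), and Pln, which PKA phosphorylation relieves of its hold on the calcium pump, fell 4.27-fold. The genes that rose were Hcn4, a pacemaker channel that binds cyclic AMP directly, and Pkig, one of the PKA inhibitor peptides. Pkig went from 2522 ± 112 to 3468 ± 309 (limma adjusted p = 0.00227). Pkia, another inhibitor peptide gene and picked here after its value was seen, went the other way, from 7092 ± 453 to 2302 ± 101, a 3.08-fold fall (limma adjusted p = 2.27e-06).

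Of 19 tested CREB factors and classic CREB targets, 9 fell and 2 rose, with a median log2 fold change of -0.35. That was 57.9% called, against 46.0% of all genes tested. Fos, an immediate early gene, was read at 399, 2143 and 3362 in GFP and at 199, 197 and 226 in Tbx18. The GFP libraries thus differed far more than the Tbx18 libraries, and the log2 fold change of -2.78 (limma adjusted p = 0.00475) became -3.69 when GFP replicate 1 was left out and -2.15 when GFP replicate 3 was. Fosb was read at 178, 729 and 1869.8 in GFP and at 147, 176 and 177 in Tbx18 (limma log2 fold change -1.90, adjusted p = 0.0360). The Fosb call was lost when GFP replicate 2, GFP replicate 3 or any 1 Tbx18 library was left out, and also with no intensity trend or with equal recovered reads (adjusted p 3.77e-05 to 0.106). Its log2 fold change became -2.80 when GFP replicate 1 was left out and -1.11 when GFP replicate 3 was. The coactivator genes Crtc2 and Crebbp were the 2 called higher, by 0.49 and 0.50 (limma adjusted p = 0.00310 and 0.0304). The Crebbp call was lost without GFP replicate 2, where the log2 fold change was 0.32, without Tbx18 replicate 1, without Tbx18 replicate 3 and without the intensity trend (adjusted p from 0.00565 to 0.127).

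The list of cyclic GMP genes holds guanylyl cyclases, natriuretic peptide receptors, nitric oxide synthases and cyclic GMP-dependent kinases. Of 8 tested, 5 rose and none fell, with a median log2 fold change of 0.72. That was 62.5% called, against 46.0% of all genes tested (22.5% higher and 23.5% lower). The 5 include Gucy1a2, with means of 6.34 in GFP and 19.9 in Tbx18, which reached the minimum mean only through its Tbx18 libraries. Quantile normalization ended the Gucy1a2 call, and so did leaving out Tbx18 replicate 1 or Tbx18 replicate 3. Npr3, the clearance receptor of natriuretic peptides, rose 3.88-fold from 103 ± 16.6 to 401 ± 70.3 (limma adjusted p = 3.40e-05). Gucy1a3, a subunit of the nitric oxide-sensitive cyclase, rose 1.74-fold from 208 ± 29.2 to 362 ± 21.3 (limma adjusted p = 0.00104). Among 19 tested Epac targets and anchoring proteins under other names, 4 rose and 5 fell, with a median of -0.04. Together 47.4% were called, near the 46.0% of all genes tested. Sphkap, a PKA anchor that prefers type I subunits, fell 2.16-fold from 1076 ± 381 to 498 ± 48.7, and Rap1gap2, which switches Rap off, fell 2.26-fold from 2005 ± 120.3 to 889 ± 48.9 (limma adjusted p = 0.00398 and 1.32e-05). Rasip1, a Rap effector of endothelial cells, rose 2.08-fold from 70.1 ± 20.2 to 146 ± 17.8 (limma adjusted p = 0.00422). Wasf1, an actin regulator and PKA anchor, was called 1.48-fold higher, but not without Tbx18 replicate 2 (adjusted p from 0.00136 to 0.0605).

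**Figure D4:**
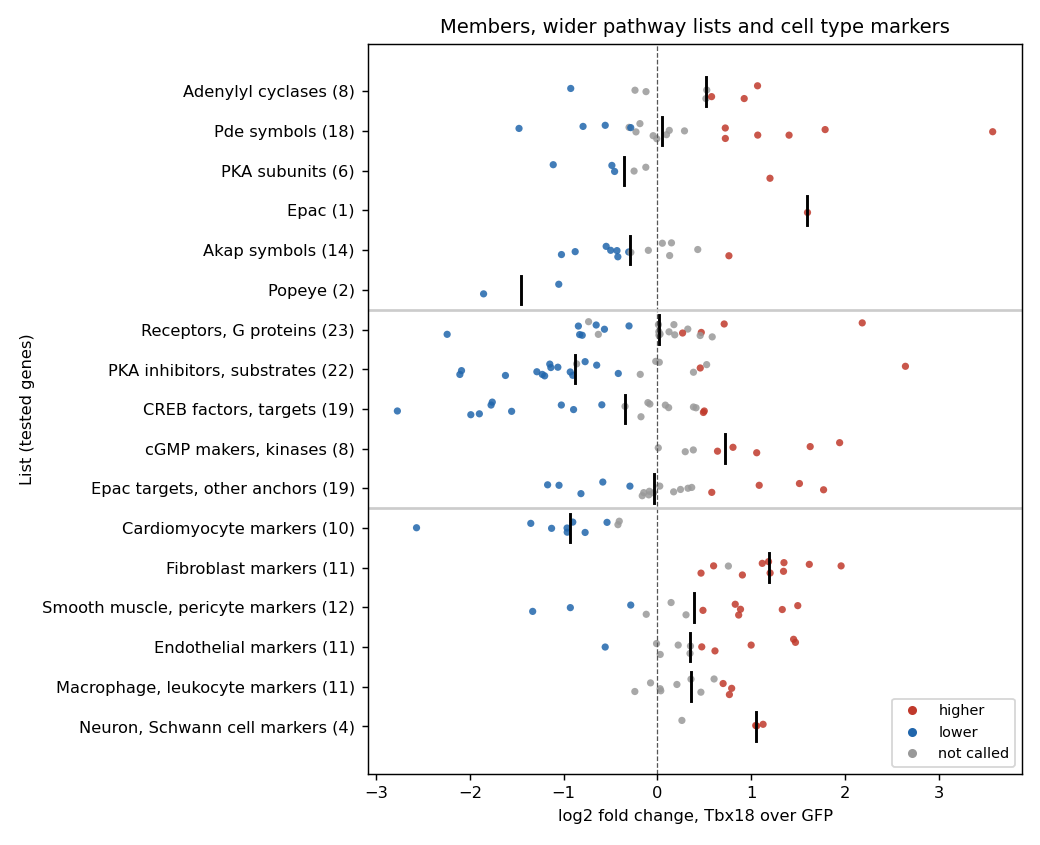
Log2 fold change of Tbx18 over GFP for tested genes of the 6 families, of 5 wider pathway lists and of 6 cell type marker lists; each point is a gene, colour shows its call and the black bar is the list's median. PKA inhibitors and substrates (median -0.88) lie beside the cardiomyocyte markers (-0.93). The cGMP list (0.72) has a positive median, as do all marker lists but the cardiomyocyte one (0.35 to 1.19).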

How the data were processed

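The 6 libraries were analysed from a deposited table of DESeq2-normalized counts, a signal in which the authors divided each library's read counts by its size factor, per the file headers. Tools listed in the submitters' processing notes, with no role, are STAR 2.4.0g1, DESeq2 1.10.1, HTSeq and bcl2fastq 2.17.1.14. Genome build, annotation and strand setting were not given in the sources used here. Per the labels' protocols, a stranded mRNA kit was used on 100 ng of RNA, with paired reads of 101 bp.

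Every value was a whole multiple of its column's step within 0.01 of a read (100% of values), so reads were recovered. Groups were compared in R 4.3.3 by limma 3.58.1 (trend, no block) on log2(value + 1), for 11230 genes with a mean of at least 10; the fit was tested on simulated data. Alternatives were 2 other pseudocounts, 2 filters, 3 scalings, limma settings, a replicate block, leaving out each library, and both DESeq2 1.42.0 and edgeR 4.0.16 run on the recovered reads. Each of these last tools called 12 members higher and 17 lower.

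The members, the 5 pathway lists (119 symbols) and the 6 marker lists were chosen with earlier results of these data known. Of their symbols, 9 pathway and 3 marker symbols were not matched, and 1 further marker is not reported here. Named members were the called ones with a mean of at least 100 and an absolute log2 fold change of at least 0.58, at most 5 per family and direction, and a list of cardiac genes whatever their result. Each pathway list gave its 2 largest called changes per direction, taken where the mean reached 100. Other genes were named after their values were seen. No counting-error intervals are given, because replicate spread was the error used.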

Additional observations from a re-analysis of the deposited data

How the results depend on the processing

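Of the 29 calls, 20 held in the same direction under every one of the 18 alternatives that tested the gene; Pde1b and Pde4c were not tested at a minimum mean of 50. With equal recovered reads 19 members were higher and 9 lower (21 of the 29 calls kept), 4770 and 1351 of all genes were called higher and lower, and the members' median log2 fold change was 0.14 against 0.27 for all genes. That median was -0.24 with a minimum mean of 50. With 1 library left out, 11 to 13 members were higher and 13 to 22 lower, and the median ran from -0.25 to -0.042. Some log2 fold changes turned sign. After quantile normalization Adcy2 was -0.0066 and Akap9 0.029. With equal recovered reads Adcy6 was 0.024, Akap9 0.17, Pde10a 0.032, Pde12 0.076, Pde3a 0.22, Pde7b 0.25, Prkacb 0.14 and Prkar2a 0.014. With upper-quartile scaling Pde3a was 0.025 and Pde7b 0.062, with array weights Akap17a was -0.0094, and in edgeR Pde7b was 0.0020. With 1 library left out, Akap17a ran from -0.046 to 0.12, Pde10a from -0.46 to 0.052, Pde3a from -0.29 to 0.078 and Pde7b from -0.11 to 0.16. None of these genes was called in the reported comparison, and the cause was not tested. Same-numbered libraries deviated with r = -0.00474, 0.151 and 0.0165 over genes, so the numbers were not taken to pair the samples. With the replicate number as a block, 12 members were called higher and 18 lower, all 29 calls were kept and the median was -0.12; of all genes 2527 were higher and 2628 lower. Depth limits the 11 members with a mean under 10, which were not compared.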
